A study of Mus musculus with 18 samples.

Results

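The genes described here are used as markers of contractile and perivascular cells, and were read in the mouse nasal lining. They are 10 genes of smooth muscle cells and pericytes, namely Acta2, Myl9, Myh11, Cnn1, Lmod1, Tagln, Des, Pdgfrb, Cspg4 and Rgs5, taken by symbol from a count table of 54532 genes. All 10 were found, and all 10 passed the filter on low counts that left 18291 genes for testing.

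Smooth muscle cells encircle arteries and veins, and pericytes sit on capillaries in contact with the endothelium. In the nose these cells set the filling of the large veins of the mucosa, and with it the width of the airway. Their force comes from smooth muscle actin and myosin, whose genes are switched on together by serum response factor (SRF) and its partner myocardin acting at a short DNA element, the CArG box. Pericytes are recruited by platelet-derived growth factor B from the endothelium, which binds the receptor encoded by Pdgfrb.

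RNA of nasal mucosa was sequenced in 18 libraries, 6 in each of 3 groups. In the C10 group, mice are taken to have had papain together with the compound C10, which the series title presents as blocking APE1 (a DNA repair and redox protein), because the protocol describes the compound in CRS mice: 10 µL per side at 10 mg/mL, daily for 10 days from the start of papain. The CRS group modelled chronic rhinosinusitis with papain, a plant protease, at an intranasal dose of 20 µg in 20 µL, given daily over days 0 to 2 and again over days 7 to 11. For the CON mice no treatment is named, and age, strain, sex and whether 1 library means 1 mouse are unstated, so the p-values speak of library-to-library spread alone. Library totals were 15883573 to 18128186 counts for C10, 16531779 to 17523368 for CRS, and 16510920 to 18433866 for CON.

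The libraries of a group differed widely among themselves. The first principal component over all genes held 32.7% of the variance and spread the CRS group from -80.9 (CRS 2) and -59.1 (CRS 5) up to 64.6 (CRS 1), whereas C10 lay within -32.0 to 31.8 and CON within -26.7 to 49.5. CRS 1 and C10 6 were the libraries of their groups with the highest summed level of the 10 genes (2010 CPM in CRS 1 and 2089 CPM in C10 6), and results that turn on them are given with and without them. CPM, the usual depth-scaled count, was computed on TMM-scaled library sizes.

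Promoter sequence of 3 genes is shown because the CArG box is the element that links smooth muscle actin and myosin genes to SRF. The search letters were CCNNNNNNGG with A or T at each N, a pattern that reads the same on both strands. Within the 250 bases before the RefSeq start (build GRCm38.p6), 482 of 32851 mouse promoters (1.47%) held it. RefSeq promoters were matched for 7 of the 10 genes. Only Myl9 among those 7 held the full pattern, 161 to 152 bases before the RefSeq start. A form with 1 G or C allowed among the 6 middle bases was added after that result was known and occurs in 2823 promoters (8.59%). It was found once more in Myl9 and at 2 positions in Acta2, and Cnn1, Des, Rgs5, Cspg4 and Lmod1 held neither form. GENCODE M21 draws Acta2 out to 34255590, so both Acta2 boxes lie inside its untranslated first exon in that annotation, although they precede the RefSeq start. Capitals mark the boxes. For Acta2 the 30 bases around each box are given (chr19:34255438-34255467 and chr19:34255388-34255417, minus strand), and for Myl9 the upstream stretch chr2:156775214-156775419 (plus strand). For Rgs5, a gene whose level behaved unlike the others below, the 250 bases chr1:169655251-169655500 (plus strand) are shown. A match is a description of these letters and not evidence of binding.
Acta2, 84 to 75 bases before the RefSeq start: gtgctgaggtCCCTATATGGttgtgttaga
Acta2, 34 to 25 bases before the RefSeq start: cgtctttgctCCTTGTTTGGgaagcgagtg
Myl9: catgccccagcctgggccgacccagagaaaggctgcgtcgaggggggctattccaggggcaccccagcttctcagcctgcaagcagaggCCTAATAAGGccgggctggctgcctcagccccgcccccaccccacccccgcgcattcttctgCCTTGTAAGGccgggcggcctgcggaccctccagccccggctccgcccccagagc
Rgs5: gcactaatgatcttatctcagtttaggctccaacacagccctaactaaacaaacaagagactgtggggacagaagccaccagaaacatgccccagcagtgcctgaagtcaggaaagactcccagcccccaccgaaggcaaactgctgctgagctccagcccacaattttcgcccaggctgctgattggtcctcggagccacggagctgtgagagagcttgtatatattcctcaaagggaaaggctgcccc

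Levels per gene length were read as FPKM in the deposited table. They order the genes but cannot show which cells made the RNA. In CON the median was 239 FPKM for Acta2, 224 for Rgs5 and 148 for Myl9, above the level of 98.8% to 99.3% of all tested genes. Acta2 and Rgs5 overlapped in range, while Rgs5 and Myl9 did not. Myh11 followed at 30.2 FPKM, Pdgfrb at 20.4, Cnn1 at 10.2 and Lmod1 at 5.63, with no overlap between neighbours in that order. Cspg4 (1.57 FPKM), Des (1.32 FPKM) and Tagln (1.25 FPKM) came last and overlapped one another. In C10 and in CRS the top gene by median FPKM was Rgs5 (221 in C10 and 211 in CRS), ahead of Acta2 (157 in C10 and 160 in CRS).

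**Figure D1:**
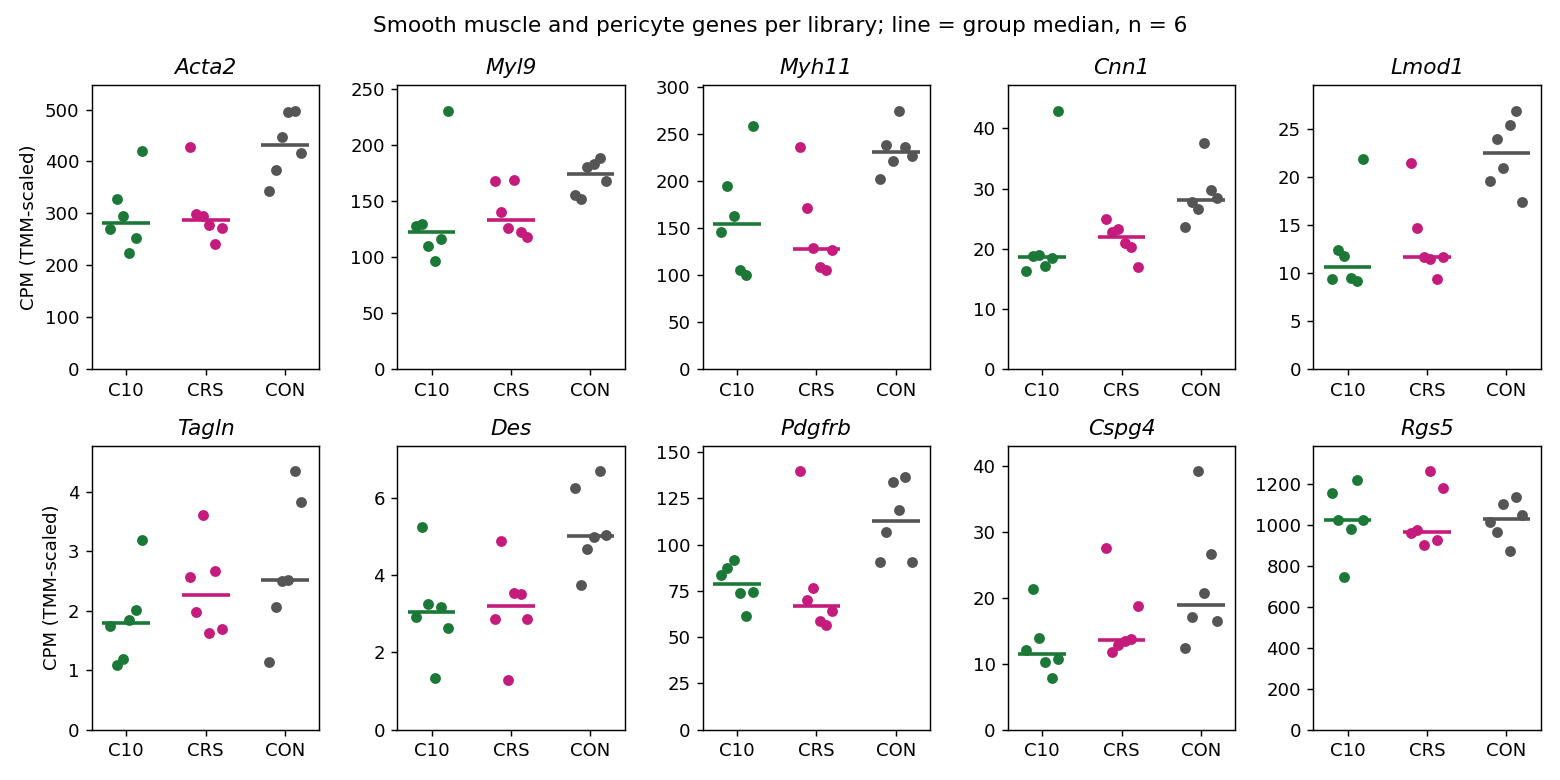
TMM-scaled CPM (vertical axes, each from 0) of the 10 genes in each library of C10, CRS and CON, with a line at the group median (n = 6 each). For Lmod1, 5 of 6 C10 points and 5 of 6 CRS points lie below every CON point, with C10 6 (21.9) and CRS 1 (21.5) as the exceptions, whereas the Rgs5 ranges of the 3 groups overlap, with C10 3 (747) below every CRS and CON point.

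Acta2 encodes smooth muscle alpha actin, the main thin-filament protein of these cells. Its lowest, median and highest levels were 224, 282 and 419.6 CPM in C10, 241, 286 and 428 CPM in CRS, and 343, 431 and 498 CPM in CON. All C10 and CRS libraries lay below the CON median, and 5 of 6 in each lay below every CON library, the exceptions being C10 6 and CRS 1. The gene lies on chromosome 19, 34241090 to 34255336, minus strand (mm10).

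Myl9, the regulatory light chain whose phosphorylation starts contraction, had 96.5, 122 and 230.5 CPM (lowest, median, highest) in C10, 118, 133 and 168 CPM in CRS, and 152, 174 and 189 CPM in CON. C10 6 was the highest of all 18 libraries, the other C10 libraries lay below every CON library, and CRS 1 and CRS 4 reached the CON range at 168 CPM. Myh11, the smooth muscle myosin heavy chain and the most cell-type-specific gene of the set, had 99.99, 154 and 259 CPM in C10, 106, 128 and 236 CPM in CRS, and 203, 231 and 275 CPM in CON. Again C10 6 and CRS 1 alone reached the CON range. Myl9 lies on chromosome 2, 156775420 to 156781658, plus strand, and Myh11 on chromosome 16, 14194535 to 14291372, minus strand.

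Cnn1 encodes calponin 1, which slows the actomyosin cycle. It had 16.2, 18.6 and 42.9 CPM in C10, 17.0, 21.9 and 24.9 CPM in CRS, and 23.6, 28.1 and 37.5 CPM in CON. The C10 libraries other than C10 6 stayed within 16.2 to 19.0 CPM, below every CON library. Lmod1, leiomodin 1, starts actin filaments in smooth muscle. It had 9.20, 10.7 and 21.9 CPM in C10, 9.43, 11.7 and 21.5 CPM in CRS, and 17.4, 22.5 and 26.9 CPM in CON. Cnn1 lies on chromosome 9, 22099216 to 22109630, and Lmod1 on chromosome 1, 135324807 to 135368065, both on the plus strand.

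Tagln (transgelin) and Des (desmin, an intermediate filament protein) are classed as abundant in vascular and visceral smooth muscle, yet both were low here. Tagln had 1.09, 1.79 and 3.19 CPM in C10, 1.62, 2.27 and 3.61 CPM in CRS, and 1.14, 2.51 and 4.34 CPM in CON, with 712 counts over all 18 libraries. The groups overlapped over most of their range. The antisense gene Gm48529 shares 1241 of the 1988 exon bases of Tagln (62.4%), with 423 counts of its own, and Pcsk7 shares 108 (5.43%). The library kit is not stated to keep the strand, and how reads on shared bases were counted is unstated. The Tagln level is therefore uncertain, and the part of this overlap in its values was not tested. Des had 1.34, 3.04 and 5.25 CPM in C10, 1.29, 3.19 and 4.89 CPM in CRS, and 3.74, 5.0 and 6.68 CPM in CON. For Des, C10 2 and CRS 2 were the highest libraries of their groups, not C10 6 (2.62 CPM) or CRS 1 (2.85 CPM). Tagln lies on chromosome 9, 45929619 to 45936058, minus strand, and Des on chromosome 1, 75360329 to 75368579, plus strand.

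Pdgfrb and Cspg4 (the proteoglycan NG2) are surface proteins of pericytes. Pdgfrb had 61.5, 78.8 and 91.6 CPM in C10, 56.6, 67.0 and 139.5 CPM in CRS, and 90.8, 113 and 136 CPM in CON. CRS 1 stood at 139.5 CPM, above all CON libraries, and the next CRS library at 76.7 CPM, below all of them; C10 6, with 74.2 CPM, was not high for this gene. Cspg4 had 7.76, 11.4 and 21.2 CPM in C10, 11.7, 13.6 and 27.5 CPM in CRS, and 12.3, 18.9 and 39.1 CPM in CON, with C10 2, CRS 1 and CON 3 as the highest libraries. Rgs5, a regulator that shortens G protein signals in pericytes and smooth muscle, had 747, 1024 and 1221 CPM in C10, 903, 967 and 1261 CPM in CRS, and 874, 1031 and 1137 CPM in CON. The groups overlapped, with C10 3 below every CRS and CON library, and CRS 1 (959 CPM) and C10 6 (1025 CPM) lay inside the CON range. Pdgfrb lies on chromosome 18, 61045150 to 61085061, Cspg4 on chromosome 9, 56865033 to 56899870, and Rgs5 on chromosome 1, 169655501 to 169695813, all on the plus strand.

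**Figure D2:**
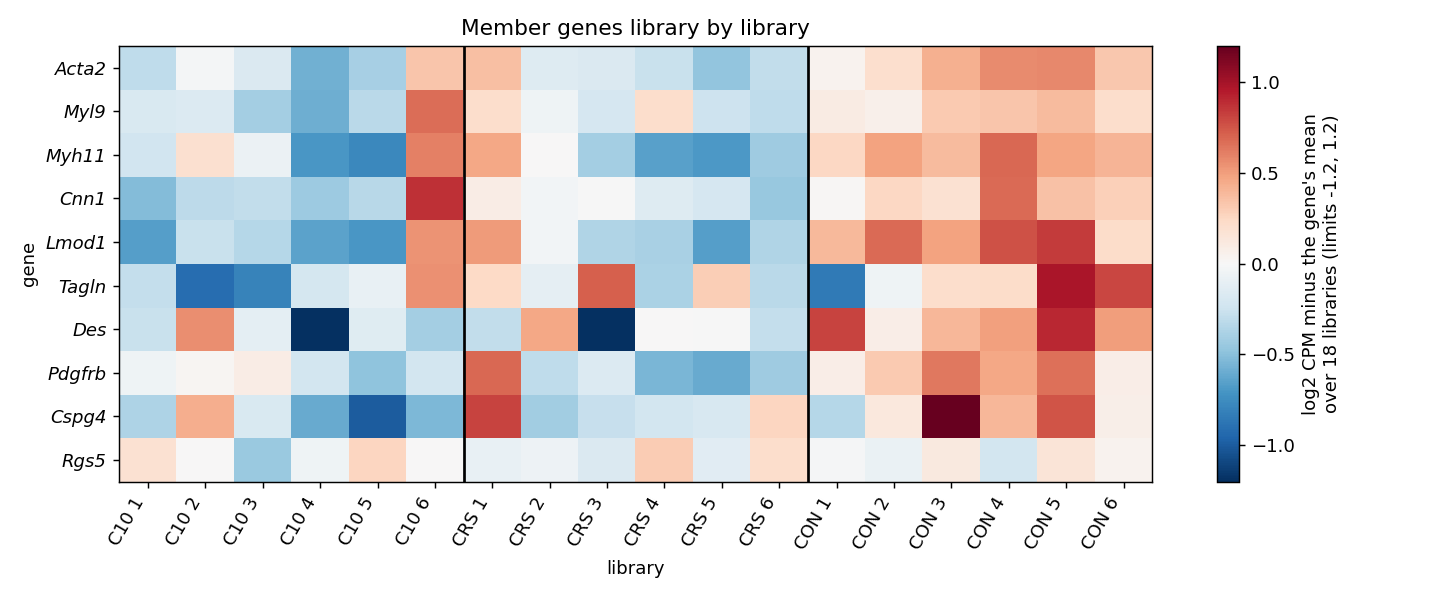
Each gene (rows) in each library (columns, C10, CRS, then CON), coloured by log2 CPM minus the gene's mean over 18 libraries, red for higher and blue for lower, with colours limited to -1.2 and 1.2. C10 6 is red for the contractile genes from Acta2 to Lmod1 but pale or blue for Des, Pdgfrb and Cspg4, CRS 1 is red for Acta2, Myh11, Lmod1, Pdgfrb and Cspg4 and paler for Myl9 and Cnn1, and Rgs5 follows none of them.

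Papain treatment was read from CRS against CON. No member passed the test: 0 of 10 had an adjusted p under 0.05 (edgeR quasi-likelihood test, Benjamini-Hochberg over 18291 genes), where 0% of all genes were called lower and 0.00547% higher. DESeq2 called 0 members as well, where 0.345% of its genes were lower, and limma-voom with quality weights called 5 lower, where 2.98% of all genes were (Acta2, Myh11, Cnn1, Pdgfrb and Lmod1). The fitted log2 fold change was below 0 for 9 of 10, with a median of -0.47 against 0.0045 over all genes. At an unadjusted p under 0.05, 6 of 10 were lower (Acta2, Myh11, Cnn1, Des, Pdgfrb and Lmod1), where 6.3% of all genes were, and 0 of 10 higher, where 7.75% were. The CRS and CON ranges overlapped for all 10, where 0.279% of all genes lay wholly below CON and 0.383% wholly above.

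Among the contractile genes, Lmod1 stood at 0.598 times the CON level (log2 fold change -0.74 ± 0.22 SE, edgeR adjusted p = 0.219). Myh11 was at -0.68 ± 0.22 (edgeR adjusted p = 0.227) and Acta2 at -0.51 ± 0.15 (edgeR adjusted p = 0.223). Smaller log2 values were fitted for Cnn1 (-0.43), Myl9 (-0.29) and Tagln (-0.22, with a 95% interval from -0.87 to 0.44). Of the pericyte genes, Pdgfrb had -0.54 ± 0.19 (edgeR adjusted p = 0.243) and Cspg4 -0.43 ± 0.28 (edgeR adjusted p = 0.502). Des had -0.73 ± 0.29 (edgeR adjusted p = 0.281). Rgs5 had 0.015 ± 0.12, and its 95% interval from -0.23 to 0.26 leaves out the fitted values of the other members except Tagln; the difference between Rgs5 and the rest was not tested. In bulk RNA, fewer cells of a type and less RNA per cell cannot be told apart.

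The call for this comparison turned on CRS 1. This library was singled out by its summed level of the same genes, the highest of the CRS group. Leaving it out therefore lowers the CRS mean of that sum, and the calls that follow are no separate evidence of a fall. Without that library, 4 members were called lower in CRS: Pdgfrb (log2 fold change -0.79, edgeR adjusted p = 0.00974), Lmod1 (-0.93, 0.0222), Acta2 (-0.64, 0.0227) and Myh11 (-0.87, 0.0273), where 3.23% of all genes were called lower. Without CRS 1, 2 and 5 only Pdgfrb was (0.437% of all genes called lower), and without CRS 1 and C10 6, a pair chosen after the values were seen, there were 5 with Cnn1 added (3.59%). CRS 1 also had the highest summed fibroblast (7220 CPM), endothelial (852 CPM) and myeloid (3194 CPM) markers of the CRS group. Its nasal gland (14658 CPM) and olfactory neuron (3516 CPM) sums were the lowest of that group. The part of all these cells in the result was not tested.

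**Figure D3:**
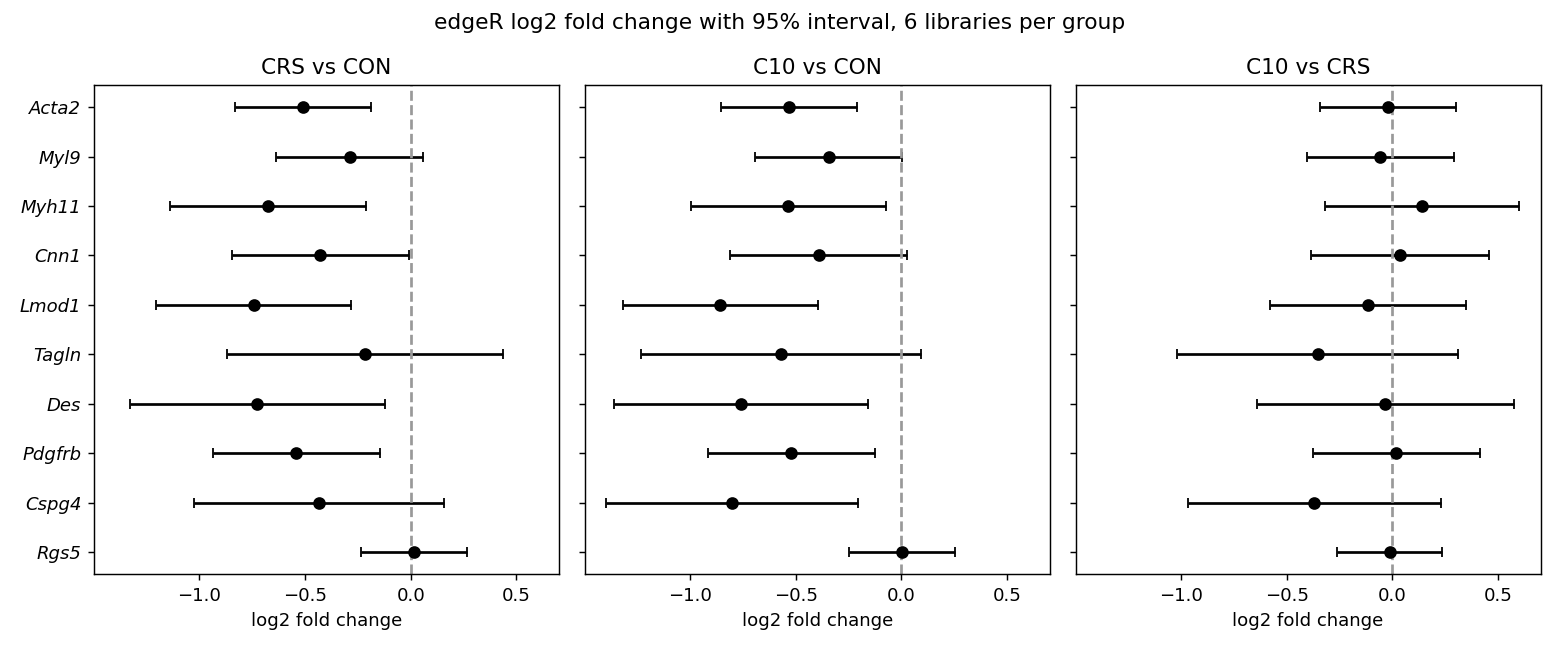
Fitted log2 fold change (horizontal axis) of each gene with its 95% interval for CRS vs CON, C10 vs CON and C10 vs CRS, n = 6 libraries per group. In the first and second panels 9 of 10 points lie left of 0 and Rgs5 lies on it (0.015 and 0.0027), and in the third all 10 intervals include 0.

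The effect of the compound in papain-treated mice was read from C10 against CRS. No member differed past the threshold: 0 of 10 were called (edgeR quasi-likelihood test, and likewise 0 by DESeq2, where 1.46% of its genes were lower, and 0 by limma-voom with quality weights, where 1.75% were), where 0.0164% of all genes were called higher and 0.0656% lower, and 0 of 10 had an unadjusted p under 0.05, where 5.77% of all genes were higher and 7.41% lower. The ranges overlapped for all 10, where 0.355% of all genes lay wholly above CRS and 0.525% wholly below. The fitted log2 fold change was above 0 for 3 and below 0 for 7, with a median of -0.027 against 0.0084 over all genes. Acta2 had -0.02 (95% interval -0.34 to 0.30), Myh11 0.14 (-0.32 to 0.60) and Lmod1 -0.11 (-0.58 to 0.35). For these 3 genes, and for Des and Pdgfrb, the interval left out a change as large as the one fitted between CRS and CON, in either direction, but it does not show that the levels were equal. It held a change of that size for Cnn1 (0.036, -0.38 to 0.46), Myl9 (-0.056, -0.40 to 0.29), Tagln (-0.35, -1.02 to 0.31) and Cspg4 (-0.37, -0.97 to 0.23), and for Rgs5 (-0.012, -0.26 to 0.24), whose change between CRS and CON was itself near 0. The sign of the median depended on single libraries: it was 0.04 without CRS 1, 0.02 without C10 4 and -0.22 without C10 6.

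Mice given papain and the compound were also set against controls. Of the 10 members, 0 were called (edgeR quasi-likelihood test), where 0.115% of all genes were called lower and 0.0437% higher. DESeq2 and limma-voom with quality weights each called 2, Acta2 and Lmod1, where 1.05% (DESeq2) and 0.847% (limma-voom) of genes were called lower. The fitted log2 fold change was below 0 for 9 of 10, with a median of -0.53 against 0.012 over all genes, and 6 of 10 were lower at an unadjusted p under 0.05 (Acta2, Myh11, Des, Pdgfrb, Cspg4 and Lmod1), where 6.83% of all genes were, and 0 higher, where 6.29% were. No member had ranges apart, where 1.08% of all genes lay wholly below CON and 0.733% wholly above. This comparison shares its CON libraries with the comparison of CRS and CON, so the same low values are not an independent repeat.

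Lmod1 again had the smallest p, at 0.552 times the CON level (log2 fold change -0.86 ± 0.22, edgeR adjusted p = 0.131). Acta2 was at -0.53 ± 0.15 (edgeR adjusted p = 0.167), Myh11 at -0.54 ± 0.22 (edgeR adjusted p = 0.308) and Cspg4 at -0.80 ± 0.28 (edgeR adjusted p = 0.245). Des (-0.76), Tagln (-0.57), Pdgfrb (-0.52), Cnn1 (-0.39) and Myl9 (-0.34) were below 0 as well, and Rgs5 was at 0.0027 (95% interval -0.25 to 0.25). The call turned on C10 6: without it, Lmod1 (-1.10, edgeR adjusted p = 0.0323) and Cnn1 (-0.70, edgeR adjusted p = 0.0323) were called lower in C10, where 0.0542% of all genes were called lower. C10 6 was likewise singled out by the highest summed level of the same genes in its group, so calls made without it are no separate evidence of a fall. Without CRS 1, 2 and 5 only Lmod1 was called lower (0.742% of all genes called lower), and without CRS 1 and C10 6 there were 4: Acta2, Cnn1, Myl9 and Lmod1 (0.25%). C10 6 had fibroblast (2170 CPM) and endothelial (365 CPM) sums near the low end of the C10 ranges, 2082 to 4611 and 312 to 522 CPM. Both sums lay below every CON library (lowest 3287 and 455 CPM). The nasal gland sum of C10 6 was the highest of the group (88728 CPM), and the part of these cells in the result was not tested.

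Other genes of the same pathways were read from 5 lists with 57 tested genes. By edgeR 0 of the 57 were called in each of the 3 comparisons. At an unadjusted p under 0.05, 23 of 57 were lower and 0 higher in C10 against CON, where 6.83% of all genes were lower, and 18 lower and 2 higher in CRS against CON, where 6.3% were lower. In C10 against CRS 4 of 57 were lower and 0 higher, a share near the 7.41% of all genes. Those 4 were Myl6 (log2 fold change -0.41), Tpm1 (-0.28), Pdgfa (-0.30) and Avpr1a (-1.02). In C10 against CON, DESeq2 called 3 of the 57 lower (1.05% of all genes) and limma-voom with quality weights 4 (0.847%). In CRS against CON DESeq2 called 2 lower (0.345%) and limma-voom 12 (2.98%), and in C10 against CRS both called 0. Without CRS 1, edgeR called 18 lower in CRS against CON, where 3.23% of all genes were, and 2 lower in C10 against CON, where 0.471% were. For the counts of genes below 0 that follow, the shares over all tested genes were 47.4% in C10 and 49.2% in CRS against CON. Groups without overlap are remarked on below only for genes picked by smallest p, and their number among the 57 is not given. Of all genes, 1.08% lay wholly below CON in C10 and 0.279% in CRS. Of 22 further contractile genes, 19 were below 0 in C10 (median log2 fold change -0.29, 11 lower at an unadjusted p under 0.05) and 20 in CRS (median -0.35, 9 lower and 1 higher). Mylk, the kinase that phosphorylates Myl9, had a mean of 102 ± 28.7 CPM in CRS libraries, against 151 ± 13.7 CPM in CON libraries (SD, n = 6 each; log2 fold change -0.56 ± 0.20, edgeR adjusted p = 0.246). Itga8, an integrin chain, was at -0.60 ± 0.17 (edgeR adjusted p = 0.211). Synm, an intermediate filament protein that pairs with desmin, had a mean of 42.5 ± 5.28 CPM in CRS libraries, against 53.9 ± 5.07 CPM in CON libraries with no overlap between the groups (-0.34 ± 0.10, edgeR adjusted p = 0.216). In C10, Tpm1, a tropomyosin that gates myosin binding to actin, averaged 193 ± 16.9 CPM, against 261 ± 29.1 CPM in CON, also without overlap (-0.43 ± 0.10, edgeR adjusted p = 0.111). Smtn, a smooth muscle actin-binding protein, was at -0.44 and Tpm2 at -0.36 in C10 against CON.

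The SRF list held SRF, its coactivators and its LIM-domain partners, and 6 of 7 were below 0 against CON in C10 (median -0.36, 3 at an unadjusted p under 0.05) and in CRS (median -0.24, 3). Srf averaged 44.2 ± 5.94 CPM in C10, 44.9 ± 12.9 CPM in CRS and 67.2 ± 13.9 CPM in CON. Its log2 fold change against CON was -0.61 ± 0.16 in C10, where the groups did not overlap (edgeR adjusted p = 0.139), and -0.58 ± 0.16 in CRS (edgeR adjusted p = 0.211). Myocd, which encodes myocardin, had a mean of 1.86 ± 0.695 CPM in CRS libraries, against 3.15 ± 0.539 CPM in CON libraries (-0.76 ± 0.34, edgeR adjusted p = 0.335). Fhl2, an SRF cofactor, was at -0.59 in C10 and -0.55 in CRS, and Csrp1, a LIM protein of smooth muscle, at -0.36 in C10.

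Of 14 further pericyte genes, 14 were below 0 in C10 (median -0.41, 4 at an unadjusted p under 0.05) and 12 in CRS (median -0.31, 2) against CON. Kcnj8, the pore of the potassium channel of pericytes, averaged 5.78 ± 1.27 CPM in C10, 5.55 ± 1.42 CPM in CRS and 8.72 ± 1.22 CPM in CON, at -0.59 ± 0.17 in C10 (edgeR adjusted p = 0.167) and -0.65 ± 0.17 in CRS (edgeR adjusted p = 0.206). Mcam, an adhesion molecule, averaged 31.7 ± 7.45 CPM in C10 and 49.9 ± 8.70 CPM in CON without overlap (-0.65 ± 0.21, edgeR adjusted p = 0.204). Notch3, the receptor that keeps mural cells mature, was at -0.43 ± 0.15 in CRS (edgeR adjusted p = 0.232) and Anpep, an aminopeptidase, at -0.44 in C10.

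Among the ligands of the platelet-derived growth factor system, Pdgfd had a mean of 8.38 ± 2.37 CPM in CRS libraries, against 13.8 ± 2.52 CPM in CON libraries (-0.71 ± 0.19, edgeR adjusted p = 0.206). Pdgfa, which acts mainly through the other receptor chain, was at 0.24 ± 0.10 in CRS against CON (edgeR adjusted p = 0.323) and at -0.30 ± 0.10 in C10 against CRS (edgeR adjusted p = 0.216). Pdgfb was at -0.29 in CRS and -0.35 in C10 against CON. Receptors that trigger contraction were below 0 for 9 of 9 tested genes in C10 (median -0.47, 4 at an unadjusted p under 0.05) and 6 of 9 in CRS (median -0.36, 3), with 2 of the 11 listed left out by the low-count filter. Ednra, the endothelin A receptor, averaged 37.2 ± 8.42 CPM in C10, 37.0 ± 17.7 CPM in CRS and 57.0 ± 11.3 CPM in CON. P2rx1, an ATP-gated channel, averaged 9.51 ± 4.64 CPM in C10 and 17.6 ± 2.07 CPM in CON (-0.89 ± 0.29, edgeR adjusted p = 0.211), and Adra1a, an alpha-1 adrenergic receptor, was at -0.87 ± 0.29 in CRS (edgeR adjusted p = 0.227).

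Markers of other cells, listed for the cell types the tissue could hold, had 0 genes called in either direction in any of the 3 comparisons (edgeR quasi-likelihood test). Against CON, list counts at an unadjusted p under 0.05 are given where they reach 2. Of all genes, 6.83% were lower at that threshold in C10 and 6.3% in CRS. Fibroblast markers were below 0 for 8 of 8 genes in both comparisons with CON (median log2 fold change -0.80 in C10 and -0.62 in CRS; at an unadjusted p under 0.05, 7 were lower in C10 and 3 in CRS), with summed levels of 2082 to 4611 CPM for C10, 2072 to 7220 for CRS and 3287 to 10794 for CON. Endothelial markers were below 0 for 10 of 10 in C10 (median -0.53) and 9 of 10 in CRS (median -0.47), 6 of them lower at an unadjusted p under 0.05 in C10 and 2 in CRS, with sums of 312 to 522 CPM for C10, 275 to 852 for CRS and 455 to 814 for CON. Myeloid markers were below 0 for 6 of 6 in both (median -0.80 in C10 and -0.48 in CRS), 2 of them lower at an unadjusted p under 0.05 in C10, with sums of 875 to 1698 CPM for C10, 335 to 3194 for CRS and 1270 to 3247 for CON, and their CRS median was -0.083 without CRS 2 and CRS 5. Nasal gland markers were above 0 for 6 of 7 in C10 (median 0.27) and 7 of 7 in CRS (median 0.55), with sums of 22743 to 88728 CPM for C10, 14658 to 116363 for CRS and 17928 to 59573 for CON. Ciliated cell markers had medians of 0.031 in C10 and -0.10 in CRS over 5 genes. Olfactory neuron markers were above 0 for 8 of 8 in both (median 0.23 in C10 and 0.21 in CRS), but their CRS median was -0.10 without CRS 2 and CRS 5. Myoepithelial cells of glands also make Acta2, and basal and myoepithelial markers had medians of -0.22 in C10 and 0.08 in CRS over 4 tested genes. Skeletal muscle markers were below 0 for 6 of 6 tested genes in both (median -0.98 in C10 and -0.66 in CRS), 2 of them lower at an unadjusted p under 0.05 in each. They summed to 3.83 to 5.67 CPM for C10, 3.99 to 6.61 for CRS and 3.58 to 62.2 for CON. CON 5 held the 62.2 and was also the highest library for Des (6.68 CPM), and Tnnc2 was at 0 in every library. The part of these cells in the members' values was not tested.

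**Figure D4:**
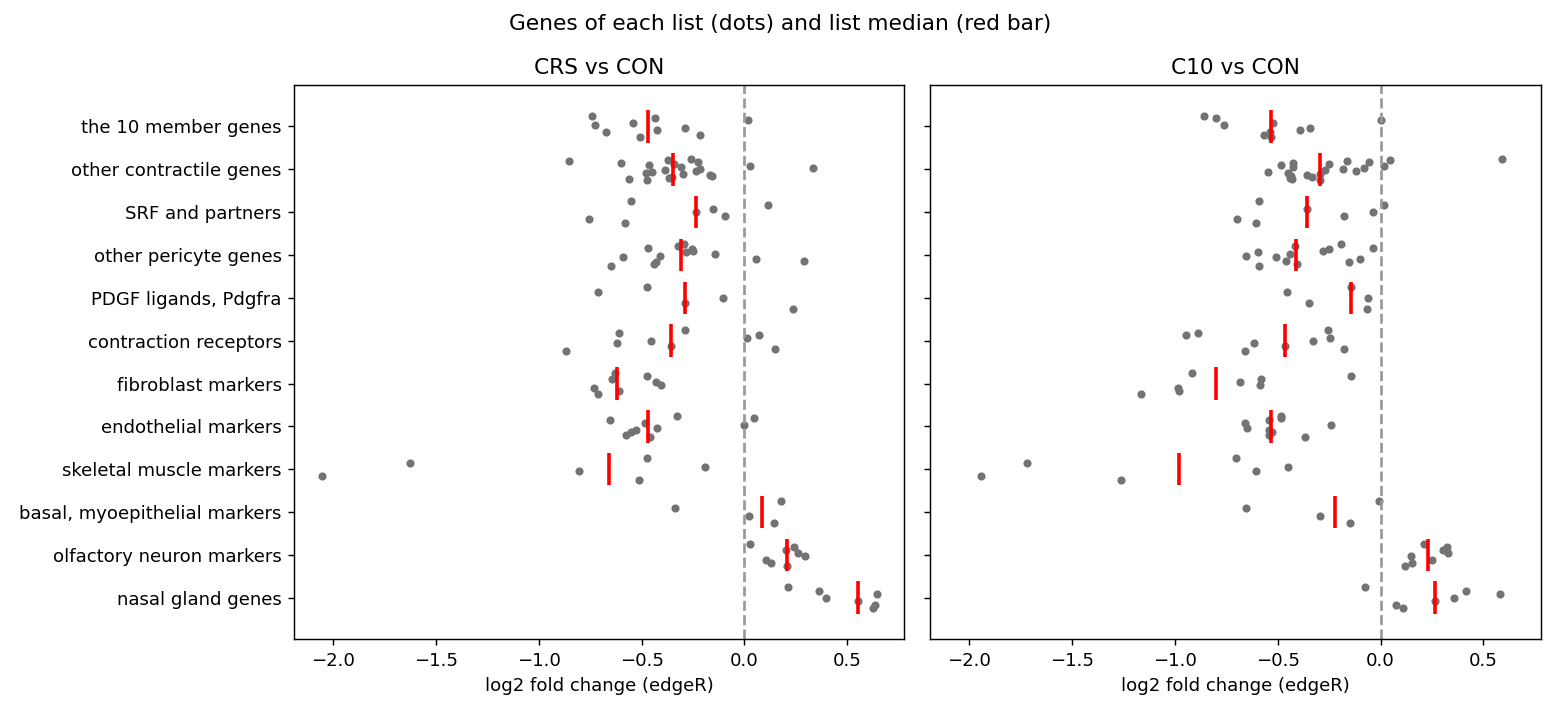
Fitted log2 fold change (horizontal axis) of each tested gene (dots) by list, with the list median (red bar), for CRS vs CON and C10 vs CON. The member median (-0.47 in CRS and -0.53 in C10) lies beside the endothelial median (-0.47 in CRS and -0.53 in C10) and to the right of the fibroblast median (-0.62 in CRS and -0.80 in C10), while olfactory neuron markers lie right of 0.

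Library by library, 5 contractile genes varied closely together, Pdgfrb followed some of them, and Rgs5 stood apart. Over 18 libraries the 45 pairs had a median Pearson r of 0.48 (range -0.24 to 0.94) in log2 CPM, and 18 pairs passed (permutation test with 100000 resamples, Benjamini-Hochberg over 45, adjusted p under 0.05). By Spearman's rho 18 passed too, but not the same 18. Myh11 with Cspg4 passed by r alone, and Cnn1 with Pdgfrb by rho alone. Acta2, Myl9, Myh11, Cnn1 and Lmod1 were correlated in all 10 of their pairs, with r from 0.76 to 0.94, rho from 0.77 to 0.94 and permutation adjusted p from 0.000113 to 0.0017. All 10 also passed with the group means removed (r from 0.68 to 0.89), and r stayed at 0.68 to 0.93 without the 2 libraries farthest from the median. Those 5 were singled out after the values were seen.

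Pdgfrb followed Cspg4 (r = 0.77, rho = 0.68, permutation adjusted p = 0.000796, and r = 0.68 without the 2 farthest libraries). It also followed Acta2 (r = 0.82, rho = 0.81, permutation adjusted p = 0.000281, and r = 0.76 without them). So it did Myh11 (r = 0.79, rho = 0.76, permutation adjusted p = 0.000532, and r = 0.78 without them). Lmod1 passed with Pdgfrb too (r = 0.78, rho = 0.77, permutation adjusted p = 0.000713, and r = 0.72 without them). All these Pdgfrb pairs also passed with group means removed (r from 0.61 to 0.76). Cspg4 passed with Acta2, Myh11 and Lmod1, but not with group means removed. With Myh11 it passed by r (permutation adjusted p = 0.0323) but not by rho (permutation adjusted p = 0.0824). Des passed with no other member, and Tagln with Cnn1 alone (r = 0.59, rho = 0.64, permutation adjusted p = 0.0259, and r = 0.54 without the 2 farthest). With group means removed, Tagln and Cnn1 no longer passed (r = 0.55, permutation adjusted p = 0.0642). In the 9 pairs with Rgs5, r ran from -0.24 to 0.17 and rho from -0.30 to 0.16, and none passed (permutation adjusted p from 0.426 to 0.965). Rgs5 is among the deepest-counted members (11997 to 21739 counts per library), so counting error is small for it. Against the mean of the other 9, r was 0.97 for Acta2, 0.91 for Lmod1 and -0.07 for Rgs5.

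**Figure D5:**
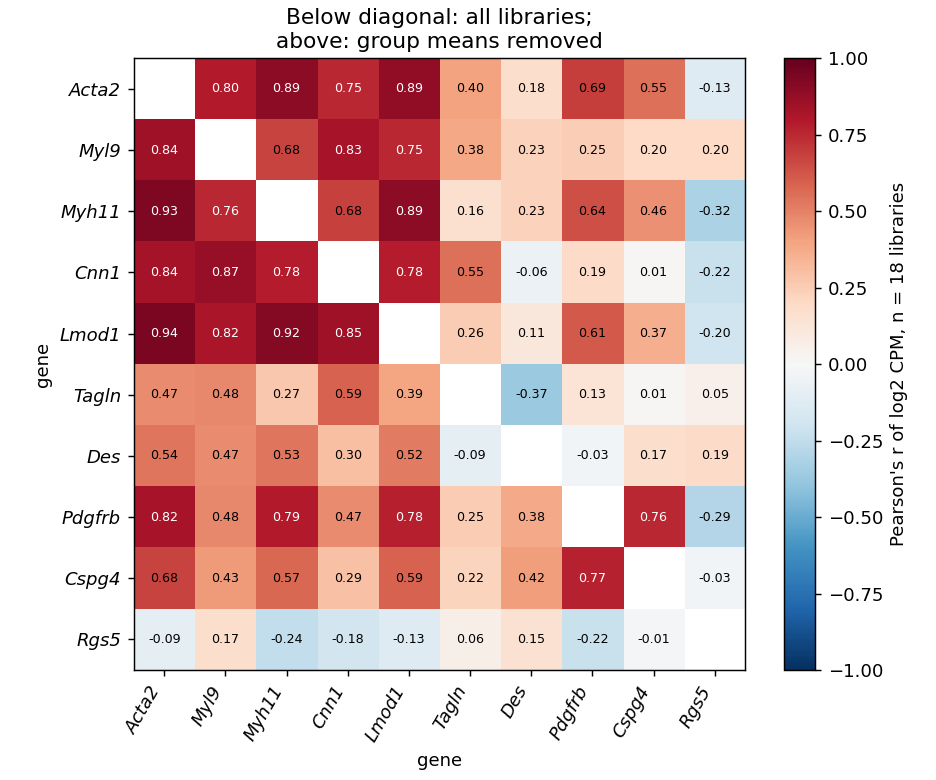
Pearson's r of log2 CPM over 18 libraries for each pair of the 10 genes, below the diagonal on all libraries as they are and above it with group means removed. The block from Acta2 to Lmod1 runs from 0.76 to 0.94 below the diagonal and from 0.68 to 0.89 above it, and the Rgs5 row runs from -0.24 to 0.17.

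A second family of 42 relations, chosen after those values were seen, set Rgs5, Pdgfrb and Cspg4 against the 14 further pericyte genes. Pdgfrb passed with 6 of 14, led by Kcnj8 (r = 0.90, rho = 0.89, permutation adjusted p = 0.00014; r = 0.91 without the 2 farthest libraries) and Mcam (r = 0.89, rho = 0.86, permutation adjusted p = 0.00014; r = 0.83 without them). Cspg4 passed with 5 of 14, led by Mcam (r = 0.87, rho = 0.82, permutation adjusted p = 0.00014; r = 0.81 without them). Rgs5 passed with 1, Cox4i2, a pericyte subunit of cytochrome oxidase (r = 0.58, permutation adjusted p = 0.0435), but not by rho (0.44, adjusted p = 0.137), and r was 0.30 without the 2 farthest libraries. Its other values reached down to -0.46.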

How the data were processed

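Poly(A)-selected RNA of nasal mucosa was sequenced in 18 libraries, 6 per group, per the labels' protocols, which do not say that the kit keeps the strand. One deposited table gives unnormalized read counts for each gene, and a second deposited table holds FPKM values, which the authors derived from the same counts and gene lengths. The submitters' processing notes name the build mm10; the aligner, counter and gene annotation are unstated in these sources. All columns were matched to a library by name.

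Counts were analysed in R 4.3.3 with edgeR 4.0.16: filterByExpr by group, TMM factors, 1 mean per group over all 18 libraries, two-sided quasi-likelihood F-tests and Benjamini-Hochberg adjustment over 18291 genes, called under 0.05. The biological coefficient of variation was 0.264. The SE is the log2 fold change over the square root of F. FPKM was used for the order of levels and, with a pseudocount of 1 or 0.1, as an alternative in limma 3.58.1. DESeq2 1.42.0 and limma-voom with quality weights were alternatives; others changed size factors, filter (none, or 1 CPM in 6 libraries), groups in the fit, a replicate block and the libraries included. A count of 3 equals 0.163 to 0.193 CPM; this covers counting error only. Correlations used log2 CPM with a prior count of 2 in Python 3.11.15 with SciPy 1.17.1, with 100000 permutations (smallest possible p 1e-05). Of 153 library pairs, each differed by a chi-square of at least 14.1 per degree of freedom, and every library was counted once. On simulated counts the edgeR steps were tested for recovery of known changes.

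The 10 genes, the lists and the tests were chosen with earlier results of these data known. Named pathway genes were taken from the 3 of smallest p per list and comparison, and not all of those are named. Genes most like the set were ranked by r with its mean standardised log2 CPM. Promoter sequences come from RefSeq (GRCm38.p6), and overlaps from GENCODE M21.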

Additional observations from a re-analysis of the deposited data

Results flagged for a closer look

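Of 30 sets of 6 libraries (10 genes in 3 groups), 4 had an extreme library farther from its neighbour, relative to the group's range in log2 CPM, than Dixon's 95% critical value for 6 samples. Chance gives about 1 in 20 for independent groups. The 30 sets are not independent: Cnn1, Myl9 and Lmod1 varied closely together and were all flagged in C10 6. The 4 flags therefore cannot be set against that rate. In C10 6, Cnn1 stood at 42.9 CPM with a gap of 0.839 of the range. Myl9 in C10 6 stood at 230.5 CPM with a gap of 0.663, and Lmod1 in C10 6 at 21.9 CPM with a gap of 0.654. In CRS 1, Pdgfrb stood at 139.5 CPM with a gap of 0.663.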

How the results depend on the processing

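The median log2 fold change of the members stayed below 0 in both comparisons with CON under all 30 alternatives. Leaving out each library in turn gave 0 to 4 members called in CRS against CON (0 to 994 genes in all, median -0.64 to -0.42), 0 members in C10 against CRS (7 to 81 genes, median -0.22 to 0.04) and 0 to 2 in C10 against CON (3 to 110 genes, median -0.71 to -0.48). The 994 came without CRS 1, the 81 without CRS 2, the 110 without CRS 1 and the 3 without C10 4. In those fits the log2 fold change of Rgs5 ran from -0.046 to 0.055 (CRS against CON) and from -0.062 to 0.079 (C10 against CON). For C10 against CRS the ranges were -0.16 to 0.11 (Acta2), -0.057 to 0.33 (Myh11), -0.28 to 0.11 (Cnn1), -0.29 to 0.011 (Myl9), -0.25 to 0.12 (Des), -0.071 to 0.27 (Pdgfrb), -0.084 to 0.064 (Rgs5) and -0.37 to 0.071 (Lmod1).

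In CRS against CON, 1 gene was called in all. This became 3 with the stricter filter, 0 in the fit of only both groups, 178 with DESeq2, 940 with limma-voom (5 members), 2 on FPKM with either pseudocount, 194 without CRS 1, 2 and 5 (1 member, Pdgfrb) and 1190 without CRS 1 and C10 6, an alternative added after seeing the data (5 members). In C10 against CRS the 15 genes became 23 with the stricter filter, 9 in the fit of only both groups, 351 with DESeq2, 548 with limma-voom, 23 on FPKM plus 1, 100 without CRS 2 and 5, 53 without CRS 1, 2 and 5, and 198 without CRS 1 and C10 6. In C10 against CON the 29 became 17 with no filter, 161 in the fit of only both groups, 309 with DESeq2 (2 members), 252 with limma-voom (2 members), 74 without CRS 2 and 5, 197 without CRS 1, 2 and 5 (1 member, Lmod1) and 54 without CRS 1 and C10 6 (4 members: Acta2, Cnn1, Myl9 and Lmod1). The cause was not tested.

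The shared replicate numbers did not pair the libraries consistently: correlations of same-numbered libraries ran from -0.57 to 0.52. In C10 against CRS they ran from -0.23 to 0.52, and 3 of 6 libraries correlated best with their own number. In each comparison with CON only 1 did. With the replicate number as a block, 0 genes were called in CRS against CON, 13 in C10 against CRS and 12 in C10 against CON, and 0 members in each. Under that block Cnn1 stood at -0.032 in C10 against CRS and Rgs5 at -0.0084 in C10 against CON.

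Other values near 0 changed sign. In C10 against CRS, Cnn1 was -0.0026 with limma-voom, -0.044 and -0.055 on FPKM plus 1 and plus 0.1, and -0.23 without CRS 1 and C10 6. Acta2 was 0.013 with limma-voom and 0.056 without CRS 1, 2 and 5. Without CRS 2 and 5, Des was 0.21 and Pdgfrb -0.12, and without CRS 1, 2 and 5, Des was 0.24 and Lmod1 0.069. In C10 against CON, Rgs5 was -0.0019 with RLE factors and with DESeq2 (-0.0018), -0.0053 with no filter, -0.0063 in the fit of only both groups, -0.015 on FPKM with either pseudocount, -0.0052 without CRS 2 and 5, -0.0059 without CRS 1, 2 and 5, and -0.0037 without CRS 1 and C10 6. Of 900 member values under alternatives, 818 kept their sign and side of the threshold, 26 passed it and 56 changed sign. Depth limits Tagln and Des most, with 712 and 1185 counts over 18 libraries.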

Other observations

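Of the genes outside the set averaging 1 CPM or more, 14973 were left after predicted and clone-named ones were dropped; these, listed pathway genes included, were ranked by Pearson's r over 18 libraries with the mean standardised profile of the 10 members. This is a description with no p, and the libraries share their tissue makeup. Smtn (r = 0.94) and Mylk (0.91), both on the contractile list described above, led, followed by Igfbp6 (0.89), a binding protein of insulin-like growth factor, Adamts1 (0.89), a matrix protease, Sparcl1 (0.89), a matricellular protein, and Sspn (0.89), sarcospan of the dystrophin complex. Tgfb1i1 (0.87), Htra1 (0.87), Lhfp (0.87) and Jph2 (0.86), a junctophilin, completed the 10 highest. With group means removed, r for these 10 ran from 0.73 (Tgfb1i1) to 0.90 (Smtn). At the other end stood Sox2 (-0.85), an epithelial stem cell factor, Cipc (-0.83), Fut1 (-0.80), Esrp1 (-0.79), an epithelial splicing regulator, and Foxi2 (-0.78).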
